A study of Homo sapiens with 7 samples.

Results

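Chromosomes 2, 14, 16, 17 and 20 are the whole chromosomes that HepG2 cells are known to carry in extra copies, and the peaks on them were set against those on the other 17 autosomes. They were taken by chromosome from the authors' 6 peak lists and numbered 38378 of 153209 peaks in all, while the other autosomes held 111087. Copy number was not measured here. The background under peaks, given below, did not go with a gain of all of chromosomes 14 and 17 in every library. HepG2 is a line from a human hepatocellular carcinoma. The series mapped PPARα by chromatin immunoprecipitation and sequencing, with a nuclease digest and sonication of the chromatin, an antibody to PPARα and single-tube DNA libraries. Every group was transfected with a PPARα vector and, 48 h later, given WY14643, a PPARα agonist whose name the labels write as both Wy13643 and Wy14643, at 10 µM for 2 h. PPARα+ERα cells also carried an ERα vector and were given PPT, an ERα agonist, at 10 nM for 45 min before WY14643. PPARα+ERβ cells also carried an ERβ vector and were given DPN, an ERβ agonist, at 10 nM for 45 min before it. PPARα cells carried the PPARα vector alone.

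There were 2 libraries per group, numbered 1 and 2 in order of deposit. The labels do not say that they came from separate cultures, so every SD and p below measures variation between libraries, which may be technical. All receptors were expressed from vectors, so these are not levels of the receptors that the cells make themselves. Peak lists hold no expression and no marker of the cell type could be examined. A sample without antibody was not analysed here.

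PPARα is a nuclear receptor that binds DNA with a retinoid X receptor and turns on fatty acid oxidation genes in liver. ERα and ERβ are estrogen receptors with closely related DNA-binding domains. A chromosome present in extra copies adds more DNA to both the precipitate and the input, so more fragments stack up along it, and a peak caller weighs each stack against a local background.

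The promoters below, but for that of ATP6V0A1, are overlapped in part by regions found in both PPARα+ERα libraries and in neither PPARα library. The regions cover from 133 (GHDC) to 271 (PSMD1) of a window's 300 bases. Most PPARα+ERα summits lie outside the windows. From the gene's start they lie at -294 in both libraries for PSMD1, -438 and -437 for ZFHX2, and -401 in both for TPD52L2. For GHDC they lie at 212 and 133, and for ATP6V0A1 at -289 and -286. They are the strongest such promoter of each chromosome, and ATP6V0A1 is added because its promoter was the one with a peak in all 6 libraries. Each runs 5′ to 3′ from 250 bases before to 50 after the gene's start in RefSeq, build GRCh38.p14, and capitals mark AGGTCA, the half-site that PPARα and estrogen receptors share, on either strand (TGACCT on the other). The windows are chr2:231056617-231056916 on the plus strand (PSMD1), chr14:23551716-23552015 on the minus strand (ZFHX2), chr16:70523505-70523804 on the minus strand (COG4), chr17:42194445-42194744 on the minus strand (GHDC), chr20:63865020-63865319 on the plus strand (TPD52L2) and chr17:42458628-42458927 on the plus strand (ATP6V0A1).
PSMD1: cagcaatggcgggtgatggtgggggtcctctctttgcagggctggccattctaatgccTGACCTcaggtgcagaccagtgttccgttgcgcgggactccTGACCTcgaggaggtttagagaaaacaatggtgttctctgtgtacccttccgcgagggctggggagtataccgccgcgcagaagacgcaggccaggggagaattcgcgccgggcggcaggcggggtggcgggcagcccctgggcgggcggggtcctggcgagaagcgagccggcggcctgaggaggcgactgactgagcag
ZFHX2: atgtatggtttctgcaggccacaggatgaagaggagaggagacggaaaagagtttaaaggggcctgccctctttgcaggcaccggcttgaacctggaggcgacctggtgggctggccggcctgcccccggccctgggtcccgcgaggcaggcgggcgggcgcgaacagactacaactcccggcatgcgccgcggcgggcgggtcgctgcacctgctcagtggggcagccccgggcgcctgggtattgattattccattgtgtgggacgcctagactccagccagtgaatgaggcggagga
COG4: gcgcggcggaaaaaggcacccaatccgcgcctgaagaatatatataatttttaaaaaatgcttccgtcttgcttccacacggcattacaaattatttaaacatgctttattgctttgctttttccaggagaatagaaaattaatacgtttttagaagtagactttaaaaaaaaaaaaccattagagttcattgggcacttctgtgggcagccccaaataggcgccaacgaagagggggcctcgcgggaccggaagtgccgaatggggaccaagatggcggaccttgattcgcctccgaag
GHDC: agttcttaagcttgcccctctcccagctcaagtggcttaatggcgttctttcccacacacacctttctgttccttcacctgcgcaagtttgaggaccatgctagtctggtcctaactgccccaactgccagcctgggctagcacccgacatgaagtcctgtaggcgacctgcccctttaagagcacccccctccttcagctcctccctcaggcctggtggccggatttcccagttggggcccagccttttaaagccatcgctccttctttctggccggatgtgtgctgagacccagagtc
TPD52L2: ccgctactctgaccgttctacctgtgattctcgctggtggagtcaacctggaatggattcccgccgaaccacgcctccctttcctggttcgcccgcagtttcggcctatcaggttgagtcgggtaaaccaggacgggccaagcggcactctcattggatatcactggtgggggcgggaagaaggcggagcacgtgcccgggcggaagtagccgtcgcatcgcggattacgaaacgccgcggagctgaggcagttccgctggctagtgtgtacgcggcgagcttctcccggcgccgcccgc
ATP6V0A1: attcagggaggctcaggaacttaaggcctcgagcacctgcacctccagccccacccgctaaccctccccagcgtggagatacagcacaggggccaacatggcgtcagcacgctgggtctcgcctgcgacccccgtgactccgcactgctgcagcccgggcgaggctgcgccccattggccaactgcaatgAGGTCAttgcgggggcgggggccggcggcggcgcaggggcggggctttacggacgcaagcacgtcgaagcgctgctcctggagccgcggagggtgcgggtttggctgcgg

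PSMD1, a subunit of the proteasome, held 2 half-sites, ATP6V0A1, a subunit of the vacuolar proton pump, held 1, and the other 4 windows held none. Of the 4856 promoter windows on the 5 chromosomes 578 (11.9%) held at least 1. A match is a string of letters and not a bound site, and a window without one says nothing of the receptor.

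Peaks were denser on the 5 chromosomes than on the other autosomes in all 6 libraries. Lengths were taken outside centromeric, stalk and variable bands, which left 543.8 Mb on the 5 chromosomes and 2114 Mb on the others. PPARα+ERα libraries held 12.6 and 13.7 peaks per Mb on the 5 chromosomes, against 8.08 and 9.20 on the other autosomes. PPARα+ERβ libraries held 7.85 and 10.5, against 5.94 and 7.90. PPARα libraries held 10.3 and 15.2, against 8.18 and 12.6. No library went the other way, and the excess was 1.56-fold and 1.49-fold with PPARα+ERα, 1.32-fold and 1.33-fold with PPARα+ERβ, and 1.26-fold and 1.21-fold with PPARα. The mean ratio was 1.36-fold (log2 0.44 ± 0.14, SD, n = 6), higher in 6 of 6 libraries by an exact two-sided sign-flip permutation test (p = 0.03125, the smallest that 6 libraries allow). With 1 library left out the p could not fall below 0.0625. All 6 libraries are of 1 cell line, so any chromosomes with a steady offset would reach p = 0.03125 in this permutation test. Chromosomes 1, 6 and 12, outside the set, were also above the pooled density of the other autosomes in all 6 libraries. The range was 1.04 to 1.27 times for chromosome 6 and 1.04 to 1.12 times for chromosome 12. In PPARα+ERα library 1 chromosome 6 was denser than chromosome 17 of the set (1.27 against 1.25 times). The test thus covers variation between libraries and does not single out the 5 chromosomes. The 5 chromosomes are also richer in genes, with 8.13 protein-coding genes per Mb against 6.95 on the other autosomes. Counted per protein-coding gene, the ratio was 1.15-fold, between 1.03 and 1.32 in single libraries.

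**Figure D1:**
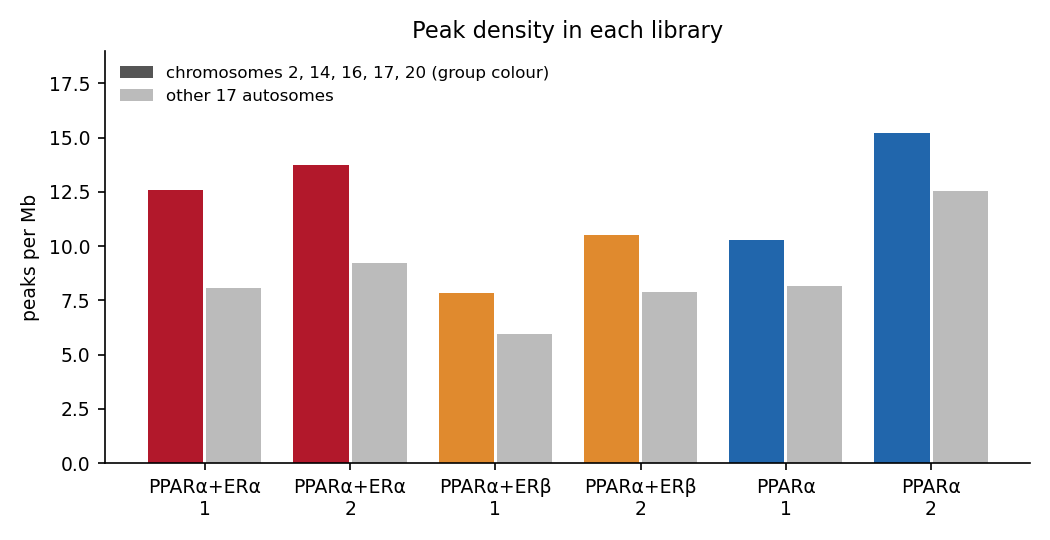
Peaks per Mb (vertical axis) in each of the 6 libraries (horizontal axis), with coloured bars for chromosomes 2, 14, 16, 17 and 20 and grey bars for the other 17 autosomes. The coloured bar is the taller in every library, from 12.6 against 8.08 in PPARα+ERα library 1 to 15.2 against 12.6 in PPARα library 2.

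The local background under the peaks was higher on these chromosomes too. It is the number of fragments that the peak caller expected at a summit, recovered from the deposited fold and p and given here as a multiple of the lowest value in the list. Its median under peaks of the 5 chromosomes was 2.57 and 2.43 with PPARα+ERα, against 1.57 and 1.33 on the other autosomes. With PPARα+ERβ it was 13.2 and 11.0, against 8.66 and 8.52, and with PPARα it was 17.2 and 20.5, against 12.3 and 15.7. PPARα+ERα peaks thus stood on a lower background in these units than those of the other groups, on either set of chromosomes. In the PPARα+ERα lists 24.1% and 26.4% of peaks on the 5 chromosomes stood at the lowest level itself, and 32.8% and 34.4% on the other autosomes. In the other 2 groups 2.18% to 7.46% did. The PPARα+ERα ratios thus come from near the bottom of the scale and are not on a par with those of the other groups. The ratio between the sets averaged 1.49-fold (range 1.29 to 1.82) and was above 1 in 6 of 6 libraries (exact two-sided sign-flip permutation test, p = 0.03125, the smallest possible). This p too is over libraries of 1 cell line and not over chromosomes. Stacks at the summits were taller by 1.26-fold, with medians of 11 and 11 fragments against 9 and 9 in the PPARα+ERα libraries, 34 and 36 against 26 and 28 in the PPARα+ERβ libraries, and 44 and 61 against 34 and 49 in the PPARα libraries.

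These 6 background values are not 6 independent measurements. Where 2 libraries had summits within 100 bp of each other on the 5 chromosomes, the recovered backgrounds were within 10% of each other at 76.1% to 92.4% of places, over all 15 pairs of libraries and 157 to 4107 places a pair. Spearman's rho of the backgrounds was between 0.94 and 0.99 in every pair, across groups as well as within them, and it is a description over places that share libraries. Which control the authors used is not given in the sources used here.

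Where the background was low, the excess was smaller and did not pass the test. Among peaks on a background of at most 3 times the lowest, the density ratio averaged 1.07-fold (exact sign-flip permutation test, two-sided p = 0.40625). It stayed above 1 with PPARα+ERα, at 1.29 and 1.27. With PPARα+ERβ it was 1.04 and 1.02, and with PPARα 0.943 and 0.941. This filter keeps unequal parts of the lists. It left 64.6% and 67.9% of the PPARα+ERα peaks on the 5 chromosomes, 17.5% and 19.7% of the PPARα+ERβ peaks, and 12.5% and 10.2% of the PPARα peaks. The part of extra DNA copies in the excess was not tested.

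The 5 chromosomes took a larger share of the lists with PPARα+ERα than with PPARα. Their share of autosomal peaks was 28.4% (6867 of 24145 peaks) and 27.6% (7505 of 27180) in PPARα+ERα cells, 25.2% (4298 of 17032) and 25.4% (5765 of 22697) with PPARα+ERβ, and 24.3% (5634 of 23182) and 23.6% (8309 of 35229) with PPARα. The groups did not overlap. For scale, the 5 chromosomes make up 20.4% of autosomal length and carry 23.1% of autosomal protein-coding genes. Wilson 95% intervals, which cover counting error only, ran from 27.1% to 29.0% over both PPARα+ERα libraries and from 23.1% to 24.9% over both PPARα libraries. The mean difference was 4.08 percentage points for PPARα+ERα less PPARα (28.0% ± 0.586 and 23.9% ± 0.507, SD, n = 2 each), 1.37 for PPARα+ERβ less PPARα (25.3% ± 0.117 and 23.9% ± 0.507) and 2.71 for PPARα+ERα less PPARα+ERβ. Each had an exact two-sided permutation p of 0.333, the smallest that 2 libraries a group allow, and 0.333 after Benjamini-Hochberg adjustment over the 3 comparisons. Cutting all lists to the length of the shortest turned the PPARα+ERβ difference to -0.117 points, and it left the other differences at 4.81 points for PPARα+ERα less PPARα and 4.92 points for PPARα+ERα less PPARα+ERβ. Without chromosome 2, the longest of the 5, the difference between PPARα+ERα and PPARα was 2.23 points and that between PPARα+ERα and PPARα+ERβ 1.15 points.

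Chromosome 20 had the highest background of the 5 with PPARα+ERβ and PPARα, and the highest peak density in 4 of 6 libraries. Its peak density was 2.06 and 1.86 times that of the other autosomes in the PPARα+ERα libraries, 1.49 and 1.48 times with PPARα+ERβ, and 1.38 and 1.33 times with PPARα. It ranked first of 22 autosomes in PPARα+ERα libraries 1 and 2, PPARα+ERβ library 1 and PPARα library 1, and chromosome 17 was denser in PPARα+ERβ library 2 (1.51 against 1.48 times) and PPARα library 2 (1.42 against 1.33 times). Chromosome 17 ranked 2 of 22 in density in all 4 libraries of PPARα+ERβ and PPARα. In median background chromosome 20 tied at the top with chromosomes 14 and 16 in PPARα+ERα library 1 (2.57) and with chromosome 16 in PPARα+ERα library 2 (2.57), and it ranked first in the other 4 libraries, at 18.6 and 15.8 with PPARα+ERβ and at 27.0 and 30.2 with PPARα. Chromosomes 2 and 16 had backgrounds 1.46 to 1.71 times and 1.29 to 1.93 times those of the other autosomes and densities 1.12 to 1.602 times and 1.26 to 1.56 times. In the background, chromosomes 2, 16 and 20 were above all of the other 17 autosomes in all 6 libraries, except that chromosome 16 tied with chromosome 6 in PPARα+ERβ library 2 (1.29 times).

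Chromosomes 14 and 17 did not go with their label in every library. With PPARα+ERα both had a background above every other autosome, 1.64 and 1.56 times for chromosome 14 and 1.5 and 1.71 times for chromosome 17. The medians behind these ratios were close to the lowest level of the list, 2.57 and 2.07 for chromosome 14 and 2.35 and 2.27 for chromosome 17. The contrast with the other groups is limited by this. With PPARα+ERβ chromosome 14 was at 1.14 times in both libraries and chromosome 17 at 1.00 times in both. With PPARα, chromosome 14 was at 1.1 and 1.15 times and chromosome 17 at 1.00 and 0.923 times. The background of these 2 chromosomes in the PPARα+ERβ and PPARα libraries thus lay within the range of the other autosomes, while their peak density was above the pooled value of the other autosomes in all 6 libraries (1.13 to 1.38 times for chromosome 14, 1.25 to 1.51 times for chromosome 17). Among the other autosomes, chromosome 6, whose short arm is known to be gained in this line, had the highest background of the others in the PPARα+ERβ and PPARα libraries. Chromosome 19, the richest in genes, had the lowest background there and in PPARα+ERβ library 2 and PPARα library 2 the highest peak density of all 22. Leaving both out gave a density ratio of 1.39-fold.

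**Figure D2:**
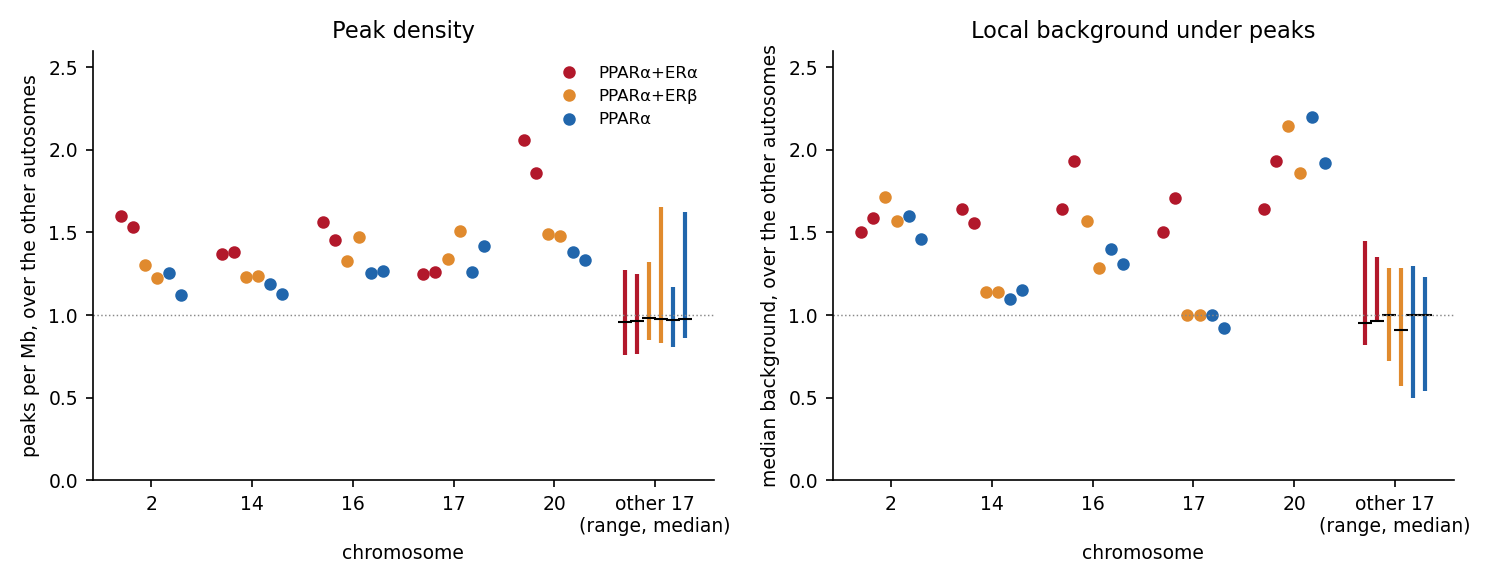
Peak density (left) and median local background under peaks (right) of each of the 5 chromosomes, as a multiple of the value on the other autosomes, with 1 point per library coloured by group, and the range and median of the other 17 autosomes as vertical lines. Chromosome 20 is highest in background with PPARα+ERβ and PPARα, and chromosome 17 lies at 1.00 or below with those groups.

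Within chromosome 17 the arms differed. The short arm had 6.21 and 8.28 peaks per Mb with PPARα+ERα, 6.12 and 8.63 with PPARα+ERβ, and 7.89 and 14.8 with PPARα. The long arm had 11.6 and 12.9, 8.70 and 13.3, and 11.3 and 18.99 in those groups. The long arm was the denser in every library. Background went the same way, at 1.00 and 1.397 times that of the other autosomes for 17p in PPARα+ERα libraries, 0.714 and 0.571 times with PPARα+ERβ and 0.700 and 0.615 times with PPARα. For 17q it was 1.62 and 1.79 times in PPARα+ERα cells, 1.14 times in both PPARα+ERβ libraries, and 1.1 and 1.00 times in the PPARα libraries. Among 39 arms, 17p ranked 37 or 38 in background in the PPARα+ERβ and PPARα libraries. On chromosome 20 it was the short arm that had the higher background in those libraries, 2.71 and 2.45 times with PPARα+ERβ and 2.40 and 2.00 times with PPARα, and the long arm that was the denser in peaks.

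**Figure D3:**
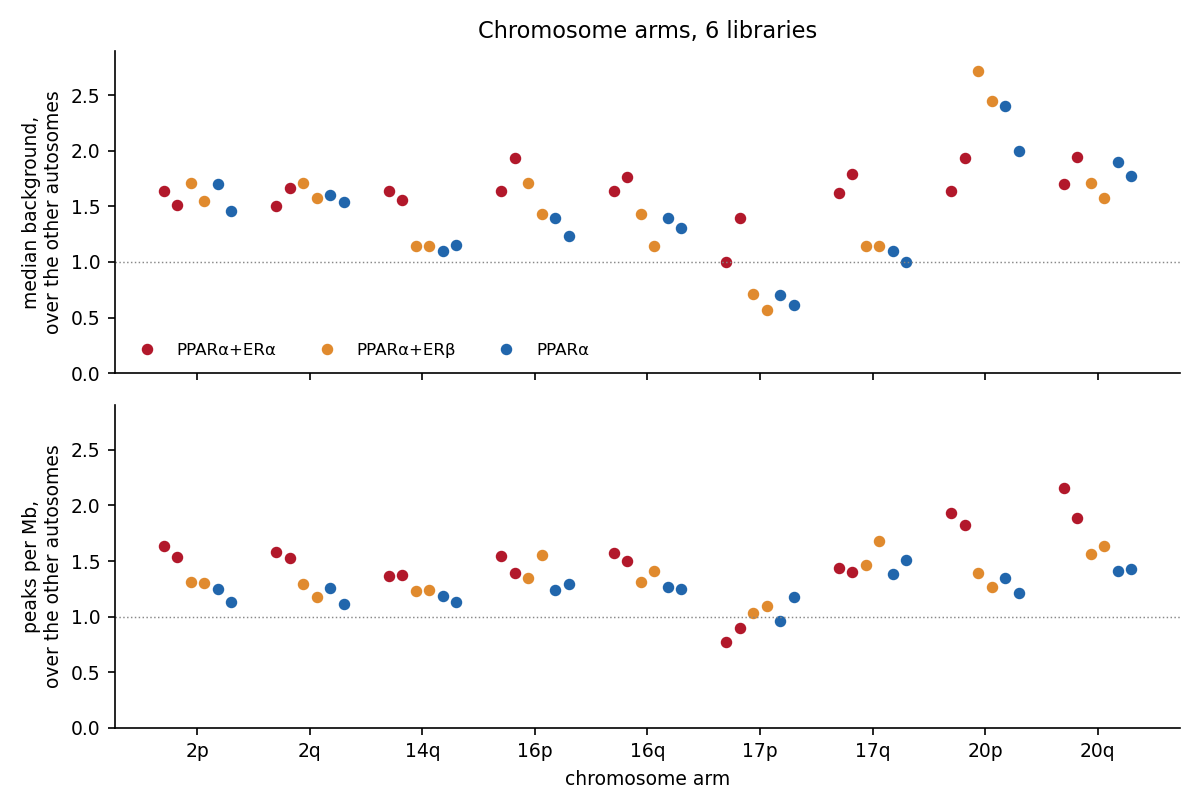
Median local background (top) and peak density (bottom) of each arm of the 5 chromosomes, as a multiple of the value on the other autosomes, with 1 point per library coloured by group. Arm 17p lies below 1 in background with PPARα+ERβ and PPARα, where 20p is highest, and 17q is the densest of these arms in PPARα+ERβ library 2 and PPARα library 2.

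In bins of 10 Mb the excess was spread over most of the 55 bins of the 5 chromosomes, and a few bins stood out. The median bin held 12.5 and 13.7 peaks per Mb with PPARα+ERα, 7.80 and 10.0 with PPARα+ERβ, and 10.5 and 14.9 with PPARα. In the 216 bins of the other autosomes it held 8.05 and 9.0, 5.90 and 7.70, and 8.30 and 12.1 in those groups. Of the 55 bins, 47 lay above the upper quartile of the other bins in each PPARα+ERα library, 33 and 39 with PPARα+ERβ, and 37 and 32 with PPARα. Of the 20 densest bins of all autosomes, 18 and 18 were on the 5 chromosomes with PPARα+ERα, 16 and 15 with PPARα+ERβ, and 16 and 14 with PPARα.

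The densest bin of all 271 with PPARα+ERα was 30 to 40 Mb on chromosome 14, with 21.7 and 25.2 peaks per Mb, first in both libraries. It also held 13.7 and 15.6 with PPARα+ERβ (ranks 1 and 3) and 15.8 and 20.3 with PPARα (ranks 1 and 8). FOXA1, a pioneer factor of liver, lies in it. The second with PPARα+ERα was 30 to 40 Mb on chromosome 20, with 19.3 peaks per Mb in both libraries, and it ranked 2 or 3 in the other 4 libraries. On chromosome 17 the bin at 40 to 50 Mb, with 264 genes the richest of that chromosome, was the densest of all in PPARα+ERβ library 2 (16.9 peaks per Mb) and PPARα library 2 (24.2), and ranked 45 and 49 with PPARα+ERα. On chromosomes 2 and 16 the densest bins with PPARα+ERα were 30 to 40 Mb and 10 to 20 Mb, with 18.1 and 17.7 peaks per Mb and 15.8 and 17.2.

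The background changed along chromosomes 14 and 17. On chromosome 14 it was 23.3 and 27.8 with PPARα at both 20 to 30 Mb and 30 to 40 Mb, and 20.9 and 21.7 at 40 to 50 Mb. Beyond 50 Mb it lay between 7.18 and 12.3 in PPARα library 1 and between 10.9 and 18.1 in library 2, where the median bin of the other autosomes had 12.3 and 15.7. On chromosome 17 it was 14.7 to 17.2 in PPARα library 1 and 15.7 to 19.7 in library 2 in the 4 bins after 40 Mb, against 7.36 to 9.82 and 8.45 to 10.9 in the 4 bins before it. So in the PPARα libraries the background was above that median bin on part of chromosome 14, was below it on the first 40 Mb of chromosome 17 and at or above it beyond, and was above it in all 6 bins of chromosome 20, from 22.1 to 31.9 and from 25.3 to 35.0. Peak densities of the 55 bins had a Pearson r of 0.93 between the PPARα+ERα libraries, 0.88 between the PPARα+ERβ libraries and 0.75 between the PPARα libraries. Between groups r ran from 0.55 to 0.73 for PPARα+ERα with PPARα+ERβ, from 0.47 to 0.75 for PPARα+ERα with PPARα and from 0.78 to 0.91 for PPARα+ERβ with PPARα, a range above the value within PPARα. Bins share a library and its depth, so these are descriptions.

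**Figure D4:**
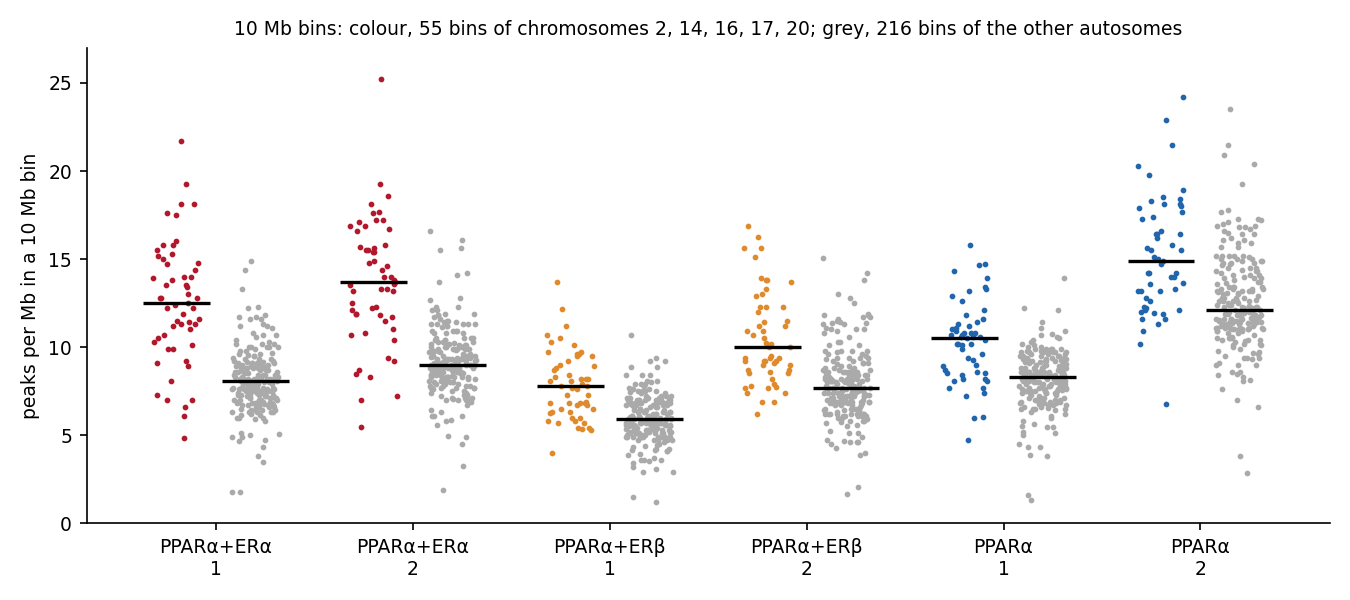
Peaks per Mb in bins of 10 Mb, with 1 point per bin and a black line at the median, for the 55 bins of chromosomes 2, 14, 16, 17 and 20 (coloured by group) and the 216 bins of the other autosomes (grey) in each library. The coloured median is above the grey one in every library, 12.5 against 8.05 in PPARα+ERα library 1 and 14.9 against 12.1 in PPARα library 2.

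Peaks on the 5 chromosomes together were also found more often in both libraries of a group, though not those on chromosome 17 in every group. Peaks that overlap by at least 1 bp were merged into 90086 autosomal regions, 22433 of them (24.9%) on the 5 chromosomes. With PPARα+ERα 3000 regions there had a peak in both libraries, 26.4% of those found in either, against 18.6% on the other autosomes (20.7% of all autosomal regions). With PPARα+ERβ 2711 did, 36.9% against 32.6% (33.7% of all), and with PPARα 4284 did, 44.4% against 40.9% (41.7% of all). The direction was the same in all 3 groups. These shares are also the Jaccard indices of the 2 libraries. The 5 chromosomes held 34.1% of the regions found in both PPARα+ERα libraries, 27.1% with PPARα+ERβ and 24.9% with PPARα. With 1 PPARα+ERα library in place of both, the first of these shares was 28.4% (library 1) or 27.6% (library 2). Chromosome 20 was highest with PPARα+ERα, 507 of 1529 regions (33.2%), and chromosome 17 lowest, 281 of 1425 (19.7%), a share near that of all autosomal regions. On chromosome 17 the share was below that of the other autosomes with PPARα+ERβ (32.3% against 32.6%) and with PPARα (38.4% against 40.9%).

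**Figure D5:**
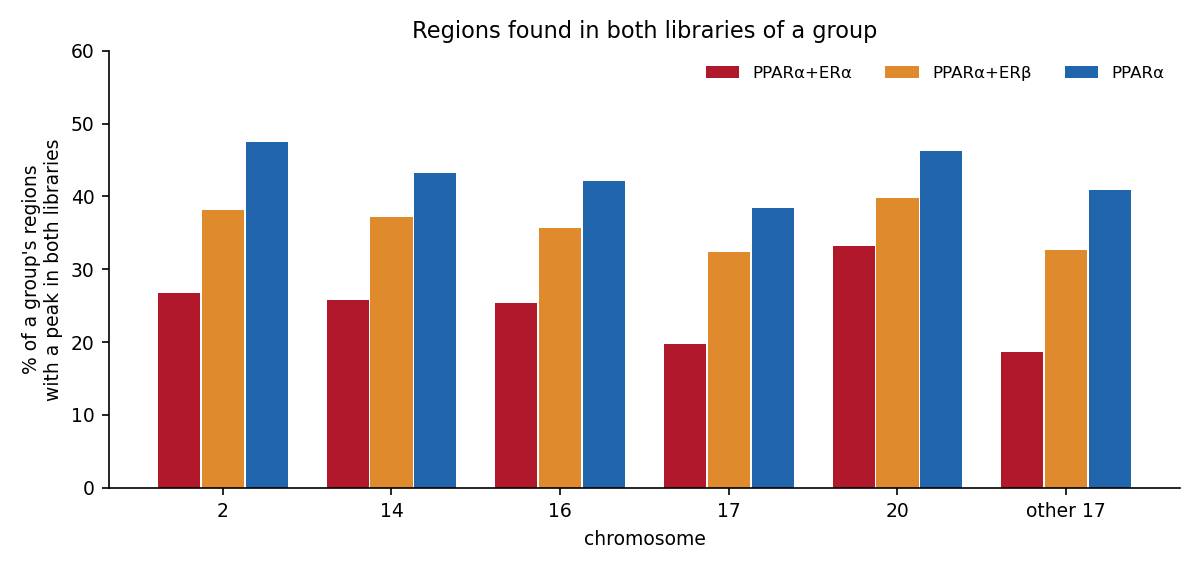
Share of a group's regions that had a peak in both of its libraries (vertical axis, percent), for each of the 5 chromosomes and the other 17 autosomes, coloured by group. With PPARα+ERα chromosome 20 reaches 33.2% and chromosome 17 is at 19.7%, against 18.6% on the other autosomes.

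Overlap between groups by the Jaccard index was slightly higher on the 5 chromosomes as well. The Jaccard index between a PPARα+ERα and a PPARα library averaged 0.0175 there and 0.0161 on the other autosomes. Between PPARα+ERα and PPARα+ERβ it averaged 0.0337 and 0.0302, and between PPARα+ERβ and PPARα 0.339 and 0.307. PPARα+ERα libraries thus shared few regions with the other groups on either set of chromosomes. Of the 3000 regions found in both PPARα+ERα libraries on the 5 chromosomes, 90.2% were unique to that group among the 6 lists, and on the other autosomes 89.6% were.

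A region was taken to differ where both libraries of one group and neither of the other had a peak, with no test on single regions. On the 5 chromosomes 2858 were found with PPARα+ERα and not with PPARα, 13.9% of the regions compared, against 9.01% on the other autosomes (10.2% over all autosomes). The reverse held for 4052, 19.8% against 20.04% (20% over all). With PPARα+ERβ and not with PPARα there were 414, 3.44% against 2.57% (2.78% over all), and the reverse held for 1202, 9.97% against 10.3% (10.3% over all). With PPARα+ERα and not with PPARα+ERβ there were 2740, 15.4% against 10.3% (11.6% over all), and the reverse held for 2361, 13.2% against 12.5% (12.7% over all). So regions found with PPARα+ERα were a larger share on the 5 chromosomes in both comparisons. Those found with PPARα+ERβ were too, by less, in both of its comparisons. Regions found with PPARα were at about the share of all autosomes. The 3 comparisons share libraries. These counts depend on asking for both libraries. Without PPARα+ERα library 1 or 2, 2858 became 7169 or 6531 and 2740 became 6913 or 6317. Without PPARα+ERβ library 1 or 2, 2361 became 5086 or 3740 and 414 became 1669 or 1139, and without library 2 1202 became 2118. Without PPARα library 1 or 2, 414 became 633 or 743 and 1202 became 4016 or 1889, and without library 1 4052 became 7958. By chromosome, the share found with PPARα+ERα and not with PPARα was 18.8% on chromosome 20, 14.7% on 2, 13.2% on 14, 13.04% on 16 and 8.95% on 17.

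Regions were ranked by their lower percentile, over the lists of a group, of the authors' −log10 q within a list, and those found with PPARα+ERα and not with PPARα are given first. On chromosome 16 the region chr16:70523160-70523642 lay over the start of COG4, a subunit of the Golgi's tethering complex, next to SF3B3 of the splicing machinery. Its fold over the local background, the authors' own value for the peak, was 32.9 and 33.5, and its summits lay at -23 and 94 bases from the start of COG4. No other library had a peak there. On chromosome 2 PSMD1 had fold 17.2 and 18.4 in PPARα+ERα libraries alone, and MRPL30, a mitochondrial ribosomal gene, shared a region with its neighbour MITD1 at 15.4 and 17.8. On chromosome 20 NOP56, of ribosomal RNA processing, had 20.1 and 28.2, on a background at the lowest level of the list. On chromosome 17 MMD had 16.6 and 16.1 and also a peak in PPARα+ERβ library 1 (6.21), and GHDC had 15.8 and 16.2 with no other peak. On chromosome 14 a region at ANG and RNASE4, 2 secreted ribonuclease genes, had 11.99 and 12.6. The backgrounds under these PPARα+ERα peaks were between 1.00 and 5.64, and those under the region at TPD52L2 were 7.71 in both libraries, where the median was 2.57 and 2.43.

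The strongest regions found with PPARα and not with PPARα+ERα mostly stood on a background above the median of their list. GCA on chromosome 2 had fold 4.79 and 6.53 on backgrounds of 38.04 and 37.4, AP4S1 on chromosome 14 had 4.67 and 4.96 on 44.2 and 43.5, and SRXN1 on chromosome 20 had 3.54 and 4.47 on 62.6 and 61.6. All 3 also had a peak in at least 1 PPARα+ERβ library. NEK8 and TRAF4 on chromosome 17 were an exception, with 12.2 and 16.9 on 6.14 and 6.04, and 9.53 and 8.65 with PPARα+ERβ. Regions found with PPARα+ERβ and not with PPARα included NDUFA10, a subunit of respiratory complex I, at 8.80 and 6.83 (5.28 and 4.77 with PPARα+ERα), SEC14L1 on chromosome 17 at 11.9 and 9.85, and GPCPD1 on chromosome 20 at 7.46 and 8.21. The last 2 had no peak in any other library.

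Peaks in all 6 libraries lay in 40 regions of the 5 chromosomes, against 82 on the other autosomes (0.135% of all autosomal regions). Of these, 8 had a protein-coding gene end within 3 kb. The region that ranked highest in its weakest list had none, chr17:45903716-45904399 on chromosome 17, with fold 11.9 and 18.6 in PPARα+ERα, 19.7 and 30.5 in PPARα+ERβ and 21.4 and 48.7 in PPARα libraries. CCNYL1 on chromosome 2 had 10.8 and 7.75, 8.20 and 12.9, and 10.7 and 17.9 in those groups, on the lowest background of each list. KCTD13 on chromosome 16 had 5.68 and 5.85, 6.41 and 6.02, and 5.26 and 5.48, on backgrounds from 7.83 to 31.4. At the promoter of ATP6V0A1 the folds were 12.4 and 8.03 in PPARα+ERα cells, 3.15 and 5.57 with PPARα+ERβ, and 6.14 and 5.21 with PPARα. CDC27, POLR3K with SNRNP25, CBFB, DYNC2LI1 and ZPBP2 were the other genes of such regions.

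Near protein-coding genes, counting regions found in both libraries of a group within 3 kb of a gene end, 316 of the 4419 genes on the 5 chromosomes (7.15%) had a region with PPARα+ERα, 335 (7.58%) with PPARα+ERβ and 393 (8.89%) with PPARα. Over all autosomes the shares were 5.06%, 5.58% and 7.65%. Lipid and PPAR target genes numbered 37 there, of which 5 (13.5%) had a region with PPARα+ERα, 1 with PPARα+ERβ and 1 with PPARα. The PPARα+ERα genes were ACSM3 and ACSL3, which activate fatty acids (fold 14.7 and 12.997, and 9.19 and 7.26), HADHA, of mitochondrial β-oxidation (8.86 and 8.01), ACADL, a long-chain acyl-CoA dehydrogenase (6.48 and 4.23), and ACSF2, an acyl-CoA synthetase (3.63 and 6.83). The ACSM3 region also had a peak in PPARα+ERβ library 2 (5.61) and in PPARα library 1 (4.12). ACADL had a further region in PPARα+ERβ libraries (3.76 and 4.02) and PPARα libraries (4.52 and 7.11). Of 29 hepatocyte genes 2 had a region with PPARα+ERα, 0 with PPARα+ERβ and 2 with PPARα. The hepatocyte genes were CPS1, of the urea cycle (4.40 and 4.20), and FOXA1 (8.29 and 8.19) with PPARα+ERα, and ASGR1 and TM4SF5 with PPARα.

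Of 17 nuclear receptors and cofactors, 2 had a region with PPARα+ERα and 0 with either other group. Both are coactivators, MED1 (11.2 and 14.9) and NCOA6 (2.996 and 2.68). Of 23 genes on the proteasome list, 3 had a region with PPARα+ERα and 1 with each of the other groups. The 3 were PSMD1, PSMD12 (13.5 and 14.9) and PSME3IP1 (15.8 and 21.8). PSME3IP1 is a partner of the proteasome activator PSME3 and not a subunit of the proteasome. PSMA6, also of the proteasome, had a promoter region with PPARα+ERα (9.49 and 8.74) farther than 3 kb from its annotated ends and is not counted. Of 20 mitochondrial respiration genes, 3 had one with PPARα+ERα, NDUFA10, COX5B (10.6 and 11.5) and UQCRC2 (7.19 and 10.7), and 1 with each other group. Of 38 genes of gained regions in liver and other cancers, 3 had one in each group, among them CDH1, the epithelial cadherin, with PPARα+ERα (10.1 and 14.8) and, at another region, with PPARα+ERβ (7.80 and 9.69) and PPARα (9.55 and 11.4). Of 11 metallothionein genes, 0 had one with PPARα+ERα and 1 with each other group. Of 4 circadian genes, 2 had one with PPARα+ERβ, PER2 (11.0 and 8.43) and PER1 (3.34 and 3.14), and 0 with the other groups. These lists hold few genes, and no count was tested against the shares of all genes given above.

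Few promoters were covered. Of 4856 promoter windows on the 5 chromosomes, 30 overlapped a region found in both PPARα+ERα libraries (0.618%), 23 one of PPARα+ERβ (0.474%) and 14 one of PPARα (0.288%), against 0.245%, 0.288% and 0.270% of 16299 windows on the other autosomes. The half-site AGGTCA was in 5 of the 30, 3 of the 23 and 4 of the 14, and in 11.9% of all windows on the 5 chromosomes. The direct repeat of PPARα, 2 copies of AGGTCA with 1 base between, and the estrogen response element, GGTCA and TGACC with 3 bases between, were in none of them, and in 1 and 3 of the 4856 windows. TCTCGCG was in 5 of the 30 windows (4 genes, MED1, DNAJC27, NDUFA10 and FANCA), 3 of the 23 and 0 of the 14, and in 4.63% of the 4856. On the other autosomes 1 of 40 such windows held it with PPARα+ERα, 4 of 47 with PPARα+ERβ and 1 of 44 with PPARα. On the 5 chromosomes the PPARα+ERβ windows of BAZ2B and MARCHF7, both with TCTCGCG, shared a region. CCGGAAG was in 5, 2 and 1, GGGCGG in 15, 8 and 4 and CCAAT in 11, 5 and 4 of the windows with PPARα+ERα, PPARα+ERβ and PPARα, and in 14.4%, 58.8% and 33.8% of the 4856. Both strands were searched, and windows with the same gene count separately.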

How the data were processed

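Per the submitters' processing notes, reads were trimmed with Trim Galore 0.6.4 and aligned with Bowtie 1.0.1, peaks were called with MACS2 2.2.7.1, and HOMER 4.11, ChIPseeker 1.18.0 and DiffBind 2.16 were used, on build hg38. The control is not given in the sources used here. Each of the 6 deposited lists, 1 per library, gives for every peak a fold over local background, −log10 p and −log10 q values and a score, all made by the authors' peak caller. Read totals are not known. The fragments and the background at each summit were worked back from the fold and the −log10 p that the authors deposited, within 0.001 for 100.0% of peaks and to 1 solution for 99.9%.

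Densities use chromosome lengths and cytobands from R 4.3.3 (GenomeInfoDb 1.38.1, circlize 0.4.16). Bins are 10 Mb with at least 5 Mb outside heterochromatic bands. Everything else used pandas 2.3.3, SciPy 1.17.1, Matplotlib 3.10.9, statsmodels 0.14.6 and NumPy 2.4.6 under Python 3.11.15. Tests were exact permutations over libraries, with Benjamini-Hochberg adjustment over the 3 group comparisons. The recovery of fragments and background, the density ratio and the merging of peaks were tried on simulated data, and the permutation tests were not. Wilson 95% intervals cover counting error only. Genes and promoter windows are from RefSeq. Named genes are the 2 at the strongest differing regions of each chromosome and direction, up to 3 at regions in all 6 libraries, and members of the gene lists (lipid and PPAR target, hepatocyte, nuclear receptors and cofactors, genes of gained regions in cancers, metallothionein, proteasome, mitochondrial respiration, circadian) with a region in both libraries of a group. Not all are printed, and the PSMA6 region was chosen after its values were seen. The chromosomes, lists and rules were chosen with earlier results of these data known. Alternatives were whole chromosome lengths, −log10 q of 3 or more, lists of equal length, low background, other autosomes without 6 and 19, counts per gene, and leaving out each library.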

Additional observations from a re-analysis of the deposited data

Results flagged for a closer look

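Arm 17p lay below the other autosomes in peak density in both PPARα+ERα libraries and slightly above them in both PPARα+ERβ libraries. Its peak density was 0.769 and 0.900 times theirs in the PPARα+ERα libraries and 1.03 and 1.09 times in the PPARα+ERβ libraries, a difference of -0.229 between the groups' geometric means (PPARα+ERα less PPARα+ERβ). In the PPARα libraries it was 0.964 and 1.175 times, on both sides of 1. The difference was not tested.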

How the results depend on the processing

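No paired analysis was possible because the labels give no replicate numbers shared between groups. Of 207 alternative values over 30 results, 1 reversed: with lists of equal length the share difference of PPARα+ERβ less PPARα was -0.117 points. Many others changed without reversing. Apart from counts of regions, 89 stayed the same, 13 were weaker, with a p that no longer passed, and 38 moved outside their set limits. Of the counts of regions, 38 stayed the same and 28 moved. The density ratio was 1.07 on low background (exact sign-flip permutation p = 0.40625), a filter that kept a smaller part of the peaks on the 5 chromosomes. Leaving out 1 library gave density ratios of 1.32 to 1.39 and background ratios of 1.43 to 1.53, each with an exact permutation p of 0.0625, the smallest that 5 libraries allow. The 5 chromosomes' share of regions found in both libraries was 35.5% with PPARα+ERα at −log10 q of 3 or more. With lists of equal length it was 37.7% with PPARα+ERα and 27.3% with PPARα, and on low background it was 30.2% in PPARα+ERα cells, 22.1% with PPARα+ERβ and 19.5% with PPARα. With single libraries it was 27.6% to 28.4%, 25.2% to 25.4% and 23.6% to 24.3% in those groups.

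For differing regions, at −log10 q of 3 or more the share was 35.5% (PPARα+ERα, not PPARα) and 35.6% (PPARα+ERα, not PPARα+ERβ). With equal lists it was 37.8% and 37.98% for these, 27.2% for PPARα, not PPARα+ERα, and 27.1% for PPARα, not PPARα+ERβ. On low background it was 30.3% and 30.4% for the first 2, 19.1% for PPARα, not PPARα+ERα, 22.3% for PPARα+ERβ, not PPARα, 15.5% for PPARα, not PPARα+ERβ, and 20.9% for PPARα+ERβ, not PPARα+ERα. With a library left out these ran from 27.7% to 34.2% (PPARα+ERα, not PPARα), 23.4% to 24.9% (PPARα, not PPARα+ERα), 24.0% to 27.9% (PPARα+ERβ, not PPARα), 27.5% to 34.2% (PPARα+ERα, not PPARα+ERβ) and 24.9% to 27.0% (PPARα+ERβ, not PPARα+ERα). In alternatives chosen after seeing the data, matching summits within 100 bp gave Jaccard indices on the 5 chromosomes against the others of 0.237 and 0.168 in PPARα+ERα cells, 0.346 and 0.310 with PPARα+ERβ, and 0.420 and 0.389 with PPARα, and leaving out each of the 5 chromosomes gave density ratios of 1.33 to 1.38. The cause of these changes was not tested. Unknown read totals, 2 libraries a group and backgrounds that are alike wherever 2 lists share a place limit what these counts can show.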
